A study of Rattus norvegicus with 138 samples.

Results

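The genes described are 6 genes of the NADPH oxidase family, Cybb, Cyba, Ncf1, Ncf4, Nox4 and Rac2, of the 16181 gene symbols measured. They were taken by symbol from the table of expression values, by a rule without a threshold on any value. All 6 were present and all 6 passed the filter on low values, a mean above 1 TPM in at least 1 group, which 11328 genes passed. TPM (transcripts scaled to a common library total) divides by transcript length, so levels of different genes can be set side by side on this scale.

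The phagocyte NADPH oxidase is an enzyme that passes electrons from NADPH across a membrane to oxygen and so makes superoxide, the source of the oxidative burst of neutrophils and macrophages. Its core is a pair of membrane proteins, the catalytic subunit gp91phox (encoded by Cybb) and its partner p22phox (Cyba). At rest the core is inactive. On activation cytosolic subunits, among them the organizer p47phox (Ncf1) and p40phox (Ncf4), move to it together with a Rac GTPase, which in blood cells is largely Rac2. Nox4 is a related catalytic subunit that also pairs with p22phox but makes mostly hydrogen peroxide without needing the cytosolic subunits. Nox4 is known mainly from fibroblasts, smooth muscle, endothelium and kidney rather than from phagocytes, so the name phagocyte oxidase covers 5 of the 6 genes.

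RNA was measured in whole tibialis anterior (TA) muscles of inbred adult male Lewis rats. In operated rats a full-thickness 6 mm punch was taken from the middle of the left TA, a volumetric muscle loss injury, which was left without repair or refilled with a minced muscle graft cut from the excised tissue of the same rat. The right TA of operated rats was not injured and is called contralateral. Some rats of each repair arm are labelled as running, a regimen that the sources used here do not describe further. Muscles were taken at 3, 7, 14 and 28 days post-injury (DPI). The control group was 4 muscles labelled sham at day 0, the left and right TA of 2 rats that the study describes as unoperated. After libraries with fewer than 7000 symbols above 1 TPM were left out, 114 muscles of 78 rats remained, 76 injured in 16 groups of 2 to 8, 34 contralateral in 14 groups of 2 to 6, and the 4 control muscles. Unless said otherwise, injured means injured without repair and without running (3, 8, 4 and 4 muscles at 3, 7, 14 and 28 DPI), and contralateral means the other leg of such rats (2, 4, 2 and 2 muscles). The control rats carry the numbers of 1 rat series and the operated rats those of a different one, so in comparisons with control muscle the injury and the series cannot be told apart, and contralateral muscle, from the series of the injured muscle, is given as a second reference.

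Sequence upstream of the gene start was read from RefSeq (rat build GRCr8, not the build of the expression table) for the 4 genes with an entry, Cybb, Cyba, Ncf1 and Nox4. The catalytic pair Cybb and Nox4 and their shared partner Cyba are shown because the levels of Nox4 followed another time course than those of Cybb and Cyba, described further on. Up to 250 bases before the annotated start are given 5′ to 3′ on the strand of the gene, and for Nox4 only 97 of them, because the other 153 lie inside the annotated gene. Capitals mark matches, on either strand, to CCAAT (reverse ATTGG) or to GAGGAA (reverse TTCCTC), the core bound by PU.1, a transcription factor of myeloid cells. Both motifs were chosen with these sequences known.
Cybb, chrX:16065066-16065315, minus strand: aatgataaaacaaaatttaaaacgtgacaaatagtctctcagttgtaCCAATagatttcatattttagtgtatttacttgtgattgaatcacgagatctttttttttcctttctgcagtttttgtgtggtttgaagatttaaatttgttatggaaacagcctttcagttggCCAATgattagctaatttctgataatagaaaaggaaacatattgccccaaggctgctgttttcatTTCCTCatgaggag
Cyba, chr19:67404215-67404464, minus strand: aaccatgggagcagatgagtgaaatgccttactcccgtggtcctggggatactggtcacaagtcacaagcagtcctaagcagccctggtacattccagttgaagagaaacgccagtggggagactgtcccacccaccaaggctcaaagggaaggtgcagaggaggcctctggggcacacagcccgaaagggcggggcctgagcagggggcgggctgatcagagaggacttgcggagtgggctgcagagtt
Nox4, chr1:150313639-150313735, plus strand: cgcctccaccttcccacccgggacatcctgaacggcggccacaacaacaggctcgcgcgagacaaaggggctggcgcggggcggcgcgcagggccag

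The Cybb window held CCAAT at bases -203 to -199 and -79 to -75 and TTCCTC at -14 to -9, counted back from the gene start, and no match to either motif stood in the Cyba, Ncf1 or Nox4 windows. Over the full 250 bases the GC content was 32% for Cybb, 59.6% for Cyba, 58.4% for Ncf1 and 72.8% for Nox4. Of 33469 rat promoter windows of that length, 34.0% held CCAAT and 23.3% held the PU.1 core, so either motif is common, and a match is a description of these letters only.

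All 6 genes were higher in injured than in control muscle at 3 DPI, and no value of an injured muscle overlapped one of a control muscle. Of all tested genes 48.3% were called higher there, by the limits given below. The share of all tested genes without overlap is not given, so here and in later comparisons a lack of overlap only describes the values. Cybb, the catalytic subunit of phagocytes, stood at 0.25, 0.53, 0.72 and 0.86 TPM in the 4 control muscles and at 76.55, 102.09 and 120.48 TPM in the 3 injured muscles at 3 DPI. Later values in injured muscle had lower means, with 19.84 TPM in the lowest, a median of 43.3 and 68.39 in the highest of 8 muscles at 7 DPI. At 14 DPI the 4 muscles held 11.04, 12.06, 12.49 and 16.33 TPM, and at 28 DPI 5.93, 6.82, 8.14 and 23.78 TPM. Even the lowest injured muscle at 28 DPI lay above every control muscle. On log2(TPM + 1), the scale of all fold changes here, which understates changes of genes with low values, Cybb was higher than control by 5.98 (SE 0.35, adjusted p = 8.95e-28, limma) at 3 DPI, 4.72 (SE 0.28, adjusted p = 1.73e-27) at 7 DPI, 3.14 (SE 0.33, adjusted p = 4.48e-14) at 14 DPI and 2.74 (SE 0.33, adjusted p = 1.44e-11) at 28 DPI. The ratio of mean TPM was 169 at 3 DPI and 18.9 at 28 DPI. The mean at 28 DPI, 11.2 TPM, was raised by the muscle at 23.78 TPM and lay above the median of 7.48 TPM. A gene is called here at a Benjamini-Hochberg adjusted p under 0.05, over all tested genes, with a log2 fold change beyond 1. The plot of the 6 genes by day shows these values.

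**Figure D1:**
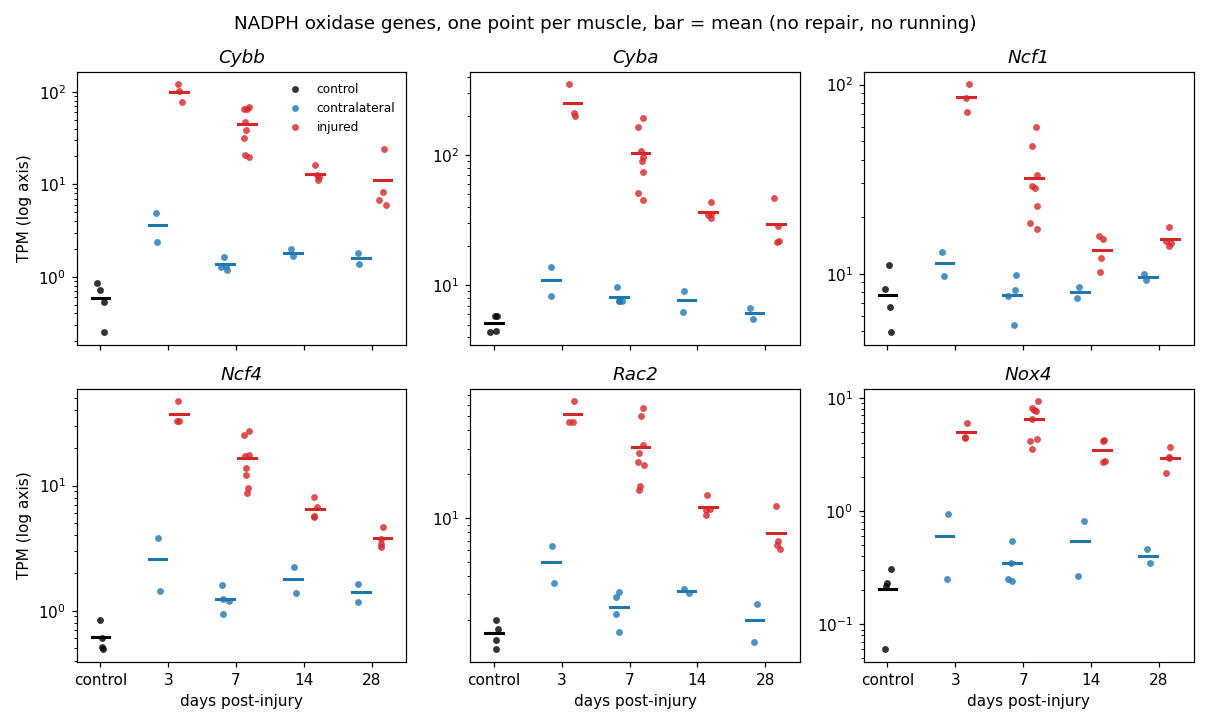
TPM (log axis) of the 6 NADPH oxidase genes in control, contralateral and injured muscle without repair or running, by days post-injury, where each point is a muscle and each bar a group mean. Cybb, Cyba, Ncf1, Ncf4 and Rac2 had their highest means at 3 DPI, while Nox4 had its highest mean, 6.45 TPM, at 7 DPI.

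These are whole muscles, in which more cells of a type and more RNA per cell cannot be told apart. Markers of leukocytes were also higher in injured muscle, on a background where 48.3%, 45.6%, 25% and 21.1% of all tested genes were called higher than control at 3, 7, 14 and 28 DPI and 4.24% lower at 3 DPI. The summed level of 7 pan-leukocyte markers was 6.53 to 11.35 TPM in control muscle, 612 to 822 TPM at 3 DPI, a mean of 277 TPM at 7 DPI and 49.8 to 113 TPM at 28 DPI, and 7 of 7 were called higher at each day. Of 14 macrophage markers, 13 were tested and 13 called higher at each day, with mean sums of 51.3 TPM in control muscle, 6151 TPM at 3 DPI and 592 TPM at 28 DPI. Of 11 neutrophil markers 7 were tested, and 6, 4, 3 and 0 were called higher in day order, so at 7 DPI their share was near the background. The sum of 8 lymphocyte markers, of which 6 were tested and 5, 5, 5 and 0 called higher, had another course, with means of 1.84 TPM in control muscle and 20.8, 28.0, 11.9 and 6.65 TPM at 3, 7, 14 and 28 DPI, highest at 7 DPI as the mean of Nox4 was. S100a8, a protein of neutrophil cytosol, had a mean of 1.31 TPM in control and 76.0 TPM in injured muscle at 3 DPI. The granule genes Mpo and Elane were near 0 in both (0.02 and 0.02 TPM for Mpo, 0.00 and 0.11 TPM for Elane). Whether neutrophils were present cannot be read from these genes alone. The fibroblast marker sum had means of 164 TPM in control muscle, 6263 TPM at 3 DPI, 10977 TPM at 7 DPI and 2820 TPM at 28 DPI. The sums of 6 endothelial and 6 mural cell markers, from other cells known for Nox4, also had their highest means at 7 DPI, with 75.9, 169, 221, 159 and 150 TPM (endothelial) and 145, 376, 553, 383 and 334 TPM (mural) in control muscle and at 3, 7, 14 and 28 DPI. The sum of muscle fibre markers, which defines the tissue, fell from 191168 TPM to 39282 TPM at 3 DPI, with 10 of 10 called lower, and stood at 132231 TPM at 28 DPI. What part these markers have in the levels of the oxidase genes was not tested.

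Cyba, the partner of both catalytic subunits, was the most abundant of the 6 genes at 3 DPI. Its control muscles held 4.36, 4.45, 5.86 and 5.87 TPM, and its injured muscles 200.22, 209.88 and 349.60 TPM at 3 DPI. The range at 7 DPI was 45.44 to 194.15 TPM around a median of 93.3, followed by 32.98, 34.59, 35.31 and 43.60 TPM at 14 DPI and 21.59, 22.05, 28.36 and 46.50 TPM at 28 DPI. The groups did not overlap control at any day. The log2 fold changes against control were 5.34 (SE 0.30), 3.94 (SE 0.24), 2.62 (SE 0.28) and 2.26 (SE 0.28) in day order, and the largest of the 4 adjusted p values was 5.90e-11 (limma).

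The cytosolic subunits differed in their starting level. Ncf4, which encodes p40phox, stood at 0.49, 0.51, 0.61 and 0.84 TPM in control muscle and at 32.68, 33.00 and 47.16 TPM at 3 DPI, a log2 fold change of 4.57 (SE 0.27, adjusted p = 2.61e-28, limma). At 28 DPI Ncf4 was still at 3.24, 3.44, 3.77 and 4.68 TPM, a log2 fold change of 1.56 (SE 0.25, adjusted p = 4.96e-08, limma), with no overlap with control. Ncf1, which encodes the organizer p47phox, had the highest control level of the 6 genes, with 4.90, 6.69, 8.28 and 11.17 TPM. In injured muscle Ncf1 reached 71.57, 84.63 and 100.32 TPM at 3 DPI and 17.28 to 59.60 TPM, median 28.8, at 7 DPI. These are log2 fold changes of 3.34 (SE 0.24, adjusted p = 1.03e-22, limma) and 1.85 (SE 0.19, adjusted p = 8.90e-15, limma). At 14 DPI the 4 muscles held 10.27, 12.14, 15.30 and 15.74 TPM, which overlapped the control range, and at 28 DPI 14.05, 14.56, 14.94 and 17.65 TPM, all above it. The differences at these days, 0.74 (SE 0.22, adjusted p = 0.00229, limma) and 0.94 (SE 0.22, adjusted p = 0.000152, limma) on the log2 scale, passed the adjusted p but not the fold limit, so Ncf1 was not called at 14 or 28 DPI. With size factors, which scale each library by its typical gene, the Ncf1 differences at 7, 14 and 28 DPI were 0.85, 0.12 and 0.33, and the call at 7 DPI was lost.

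Rac2, the GTPase of the complex, stood at 1.25, 1.46, 1.74 and 1.99 TPM in control muscle and at 45.68, 45.81 and 63.26 TPM at 3 DPI. Later it held 15.63 to 56.61 TPM at 7 DPI (median 26.1), 10.53, 11.42, 11.59 and 14.45 TPM at 14 DPI and 6.09, 6.50, 6.96 and 12.03 TPM at 28 DPI. No injured muscle overlapped control at any day. The log2 fold changes were 4.32 (SE 0.31), 3.48 (SE 0.25), 2.32 (SE 0.28) and 1.73 (SE 0.28) in day order, and the largest of the 4 adjusted p values was 1.48e-07 (limma).

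Nox4, the catalytic subunit that needs no cytosolic partners, had the lowest level of the 6 genes in control muscle, with 0.06, 0.22, 0.23 and 0.31 TPM. It stood at 4.41, 4.47 and 6.05 TPM at 3 DPI and at 3.55 to 9.31 TPM, median 7.09, at 7 DPI. The 4 muscles at 14 DPI held 2.73, 2.76, 4.18 and 4.21 TPM and those at 28 DPI 2.16, 2.92, 3.01 and 3.69 TPM. Every injured muscle was above every control muscle, and the injured muscles of all days spanned 2.16 to 9.31 TPM, against 5.93 to 120.48 TPM for Cybb. The log2 fold changes against control were 2.30 (SE 0.21, adjusted p = 5.77e-18, limma) at 3 DPI, 2.58 (SE 0.16, adjusted p = 6.25e-26) at 7 DPI, 1.88 (SE 0.19, adjusted p = 1.14e-14) at 14 DPI and 1.70 (SE 0.19, adjusted p = 1.12e-12) at 28 DPI. The ratio of mean TPM was 24.3 at 3 DPI and 14.4 at 28 DPI. Nox4 passed the filter on low values only through injured groups, since no control or contralateral group had a mean above 0.6 TPM. Its tests against those groups thus hold a gene kept for the groups where it was high.

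By count, 6, 6, 5 and 5 of the 6 genes were called higher than control at 3, 7, 14 and 28 DPI, where 48.3%, 45.6%, 25% and 21.1% of all tested genes were called higher. The median log2 fold change of all tested genes was itself 0.96, 0.91, 0.53 and 0.52, so part of every value is shared by the whole table on this scale. With size factors 6, 5, 5 and 5 of the 6 genes were called. Over all genes size factors gave 4623, 4038, 2426 and 1638 calls in either direction, against 5954, 5445, 2889 and 2410 without them. Against contralateral muscle 6, 6, 5 and 4 of the 6 genes were called higher, beside 32.3%, 45.3%, 20.9% and 13.1% of all tested genes. With size factors 6, 5, 4 and 4 were, without Ncf1 at 7 DPI (0.82) and Ncf4 at 14 DPI (0.99). There size factors gave 3529, 1600 and 976 calls over all genes at 7, 14 and 28 DPI, against 5365, 2385 and 1508 without them. Cybb was higher there by 4.47, 4.14, 2.30 and 2.03 on the log2 scale and Nox4 by 1.93, 2.42, 1.54 and 1.48, all called. Ncf1 missed the fold limit at 14 DPI (0.66, adjusted p = 0.0305, limma) and both limits at 28 DPI (0.61, adjusted p = 0.0553, limma), and Ncf4 missed the fold limit at 28 DPI by a small margin (0.99, adjusted p = 0.00508, limma). The plot of fold changes shows both references.

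**Figure D2:**
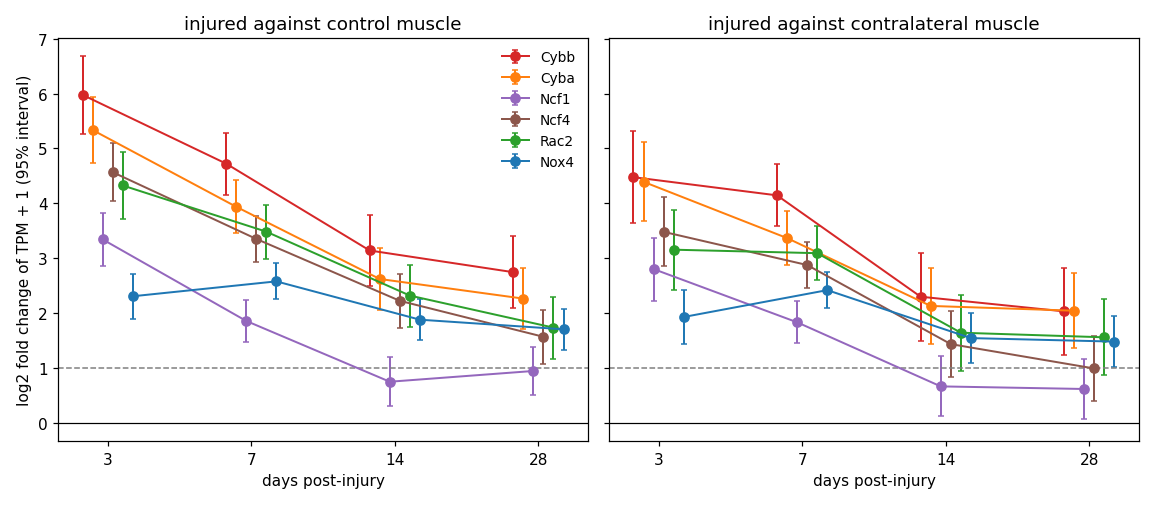
Log2 fold change on log2(TPM + 1), with 95% intervals, of the 6 genes in injured muscle against control muscle (left) and against contralateral muscle (right) by days post-injury, with a dashed line at the fold limit of 1. Ncf1 lies below the line at 14 and 28 DPI in both panels.

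The 5 genes of the phagocyte complex were lower in injured muscle at 28 than at 3 DPI, and Nox4 did not pass the fold limit. The change from 3 to 28 DPI was -3.23 for Cybb, -3.07 for Cyba, -3.0 for Ncf4, -2.59 for Rac2 and -2.40 for Ncf1 on the log2 scale, all called, where 24.3% of tested genes were called lower. All muscles at 28 DPI came from a range of rat numbers that holds no other day, so in comparisons of 28 DPI with other days the day and the range, the nearest sign of a batch in the labels, cannot be told apart. For Nox4 it was -0.60 (SE 0.21, adjusted p = 0.00713, limma), and -0.22 with size factors (adjusted p = 0.288). The first interval, 3 to 7 DPI, had 4 genes called lower beside 5.35% of tested genes. These were Ncf1 (-1.49), Cyba (-1.40), Cybb (-1.25) and Ncf4 (-1.22), while Rac2 had -0.84 (adjusted p = 0.00982) and Nox4 0.27 (adjusted p = 0.235, limma). All 3 muscles at 3 DPI came from the lowest range of rat numbers, as did 4 of the 8 at 7 DPI. Within that range only Ncf1 was called (-1.05, adjusted p = 0.000140, limma). Cyba (-0.85, adjusted p = 0.0131) and Ncf4 (-0.76, adjusted p = 0.0136) passed the adjusted p alone, Cybb (-0.67, adjusted p = 0.123) and Rac2 (-0.34, adjusted p = 0.394) passed neither limit, and Nox4 was at 0.64 (adjusted p = 0.00578, limma). From 7 to 14 DPI 5 genes were called lower beside 6.1% of tested genes, at -1.58 for Cybb, -1.32 for Cyba, -1.17 for Rac2, -1.13 for Ncf4 and -1.11 for Ncf1. Nox4 passed the adjusted p but not the fold limit (-0.70, adjusted p = 0.000153, limma). With size factors only Cybb was called in that interval. All 4 muscles at 14 DPI came from the highest range, which held 2 of the 8 at 7 DPI, and within it none of the 6 genes was called or had an unadjusted p under 0.05 in limma. There Cybb had means of 20.3 TPM at 7 DPI and 12.98 TPM at 14 DPI (-0.62, adjusted p = 0.199, limma), and the differences of the other 5 genes lay between -0.44 and -0.14. The calls from 7 to 14 DPI thus did not hold within the range. From 14 to 28 DPI none of the 6 genes was called, Ncf4 and Rac2 had an unadjusted p under 0.05 in limma, where 0.353% of tested genes were called lower. The largest difference in that interval was that of Ncf4 (-0.66, adjusted p = 0.184, limma).

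The log2 ratios of the genes within a muscle were also compared between 3 DPI (10 injured muscles) and 28 DPI (8 injured muscles), with and without graft and none from running rats. Here too the day cannot be told apart from the range of rat numbers. The ratio was taken of TPM + 1, where the scaling of the library nearly cancels, and tested by an exact two-sided permutation test adjusted over 11 ratios. The mean log2 ratio of Nox4 to Cybb was -4.23 ± 0.22 (SD) at 3 DPI and -1.65 ± 0.58 at 28 DPI. The difference of 2.59 had an exact permutation p of 4.57e-05, the smallest this design can give, and an adjusted p of 0.000168. Without graft the difference was 2.63 (3 against 4 muscles). It restates the changes of Nox4 and Cybb given above for the same muscles and is no separate evidence. The grafted muscles, which those changes did not use, gave a difference of 2.44 by themselves (7 against 4 muscles, exact permutation, adjusted p = 0.0222). Between those days the mean ratio was -2.82 ± 0.38 at 7 DPI (16 muscles) and -1.70 ± 0.18 at 14 DPI (8 muscles).

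The ratios of the phagocyte subunits to Cybb moved less. Cyba to Cybb differed by -0.03 between 3 and 28 DPI (exact permutation, adjusted p = 0.875) and Ncf4 to Cybb by 0.17 (adjusted p = 0.470). Rac2 to Cybb was higher at 28 DPI by 0.52 (exact permutation, adjusted p = 0.0148) and Ncf1 to Cybb by 0.69 (adjusted p = 0.0231), but in grafted muscles alone neither difference passed (0.36 and 0.42). Without either of 2 single muscles without repair at 28 DPI, the Ncf1 to Cybb difference was 0.57 or 0.61 and no longer passed (exact permutation, adjusted p = 0.0519 for both).

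Against the sum of the 7 pan-leukocyte markers, Ncf1 was higher at 28 than at 3 DPI by 0.94 and Rac2 by 0.76 on the log2 scale, both with an exact permutation p of 4.57e-05 and an adjusted p of 0.000168. Ncf4 had a difference of 0.42 (exact permutation, adjusted p = 0.00563), Cyba of 0.22 (adjusted p = 0.0126, and 0.12 with an adjusted p of 0.0833 in grafted muscles alone) and Cybb of 0.25 (adjusted p = 0.126, and 0.31 with an adjusted p of 0.0466 without 1 muscle at 28 DPI). With a pseudocount of 0.1 in place of 1 the Ncf4 difference was 0.20 and did not pass (exact permutation, adjusted p = 0.121). The pan-leukocyte list holds Coro1a, the gene whose level had the highest correlation with Rac2. In the injured muscles the leukocyte sum fell toward the control level, where Ncf1 already stood at 7.76 TPM on average, and the part of that baseline in the Ncf1 ratio was not tested. Nox4 against the sum of 8 fibroblast markers was higher at 28 DPI by 0.64 (exact permutation, adjusted p = 0.00126), with means of -10.13 at 3 DPI and -9.49 at 28 DPI. In between, the mean was lower than at 3 DPI, at -10.55 at 7 DPI (16 muscles) and -10.24 at 14 DPI (8 muscles).

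**Figure D3:**
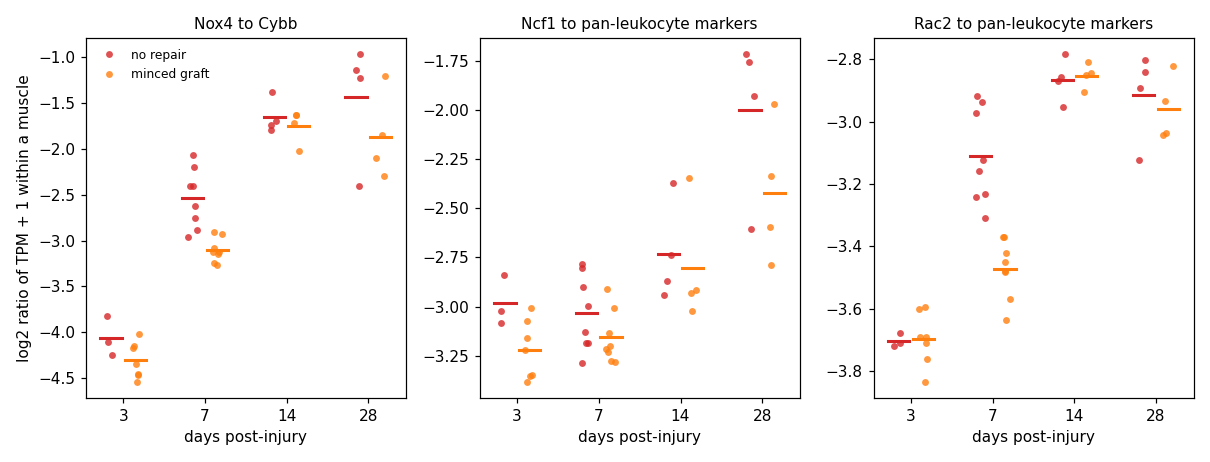
Log2 ratios within a muscle of Nox4 to Cybb, Ncf1 to the pan-leukocyte marker sum and Rac2 to the pan-leukocyte marker sum, by days post-injury, for injured muscles without running, without repair and with minced graft (points are muscles). The Nox4 to Cybb ratio had means of -4.23 at 3 DPI and -1.65 at 28 DPI.

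In contralateral muscle at 3 DPI, 3 of the 6 genes were called higher than control, where 6.37% of tested genes were. Cybb held 2.35 and 4.92 TPM in the 2 muscles, above all 4 controls, a difference of 1.5 (SE 0.40, adjusted p = 0.00176, limma). Rac2 held 3.59 and 6.44 TPM (1.17, adjusted p = 0.00435) and Ncf4 1.44 and 3.78 TPM (1.09, adjusted p = 0.00237, limma), again with no overlap. Cyba, at 8.33 and 13.73 TPM, did not overlap control either but missed the fold limit (0.94, adjusted p = 0.0180, limma). Ncf1 (0.54, adjusted p = 0.0854) and Nox4 (0.38, adjusted p = 0.157) passed neither limit. With 2 muscles against 4, a lack of overlap only describes these values, and its share over all tested genes is not given. The median log2 fold change of all tested genes was 0.43 in this comparison. Injured and contralateral muscle are compared with the same 4 control muscles, so these differences share them.

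The higher value of each of the 6 genes was in the same 1 of the 2 muscles. Without it, none of the 6 genes was called, with Cybb at 1.09 (adjusted p = 0.139, limma), Rac2 at 0.82 and Ncf4 at 0.60. In a model of these groups alone none was called either, and with size factors only Cybb was. The same muscle had the higher sum of pan-leukocyte markers (42.31 TPM against 18.87 TPM in the other, and 6.53 to 11.35 TPM in control), of macrophage markers (363 against 146 TPM) and of neutrophil markers (107.5 against 11 TPM), and the part of these cells was not tested. In the 6 contralateral muscles of the other arms at 3 DPI Cybb ranged from 2.43 to 4.27 TPM, also above every control muscle. At 7, 14 and 28 DPI none of the 6 genes was called, beside 0.636%, 0.653% and 0.185% of tested genes, and Cybb had differences of 0.58, 0.84 and 0.71 (adjusted p = 0.331, 0.297 and 0.479, limma).

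The graft comparison asks whether refilling the defect with minced muscle changed these genes in injured muscle. None of the 6 genes was called at any day, where 0.00883%, 0.0883%, 0.0265% and 0% of tested genes were called in either direction. The 24 differences, graft minus no repair, lay between -0.11 and 0.70 on the log2 scale, and their 95% intervals reached from -0.55 to 1.27. Of the 24, 5 had an unadjusted p under 0.05 and 1 an adjusted p under 0.05, Cybb at 7 DPI.

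At 7 DPI Cybb ranged from 55.54 to 81.11 TPM, median 67.55, in 8 grafted muscles, against 19.84 to 68.39 TPM, median 43.3, in 8 muscles without repair. The ranges overlapped. The difference was 0.70 (95% interval 0.24 to 1.16, adjusted p = 0.0444, limma), a ratio of mean TPM of 1.5, and by adjusted p alone 8.15% of tested genes were higher. Cyba had 0.56 (adjusted p = 0.0610), Ncf1 0.45 (adjusted p = 0.0586), Ncf4 0.40 (adjusted p = 0.121), Rac2 0.21 (adjusted p = 0.504) and Nox4 0.13 (adjusted p = 0.529, limma). The muscles came from 3 ranges of rat numbers. In the lowest range Cybb was at 63.93 to 73.23 TPM with graft and 47.59 to 68.39 TPM without (4 muscles each). In the middle range it was at 55.54 and 56.97 TPM against 31.93 and 39.04 TPM, and in the highest at 69.67 and 81.11 TPM against 19.84 and 20.71 TPM. The marker sums of leukocytes were also higher with graft, with means of 379 against 277 TPM for the pan-leukocyte and 3507 against 2250 TPM for the macrophage markers, and their part in the difference was not tested. Grafted muscle had the higher mean of Cybb in each range, by unequal amounts, and so had Cyba and Ncf4. In the lowest range Rac2 (37.5 TPM with graft, 41.75 TPM without) and Nox4 (7.20 and 8.24 TPM) had the lower mean with graft. Ncf1 was nearly equal there (42.5 and 42.2 TPM). In the middle and highest ranges these genes too had the higher mean with graft. With the range as a covariate the Cybb difference was again 0.70 (adjusted p = 0.0120, limma), and Cyba, again at 0.56, also passed the adjusted p (0.0453) but not the fold limit. With size factors the Cybb difference was 0.58 (adjusted p = 0.142).

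Against their contralateral muscles, grafted injured muscles had 6, 6, 5 and 5 of the 6 genes called higher at 3, 7, 14 and 28 DPI, beside 37.2%, 42.9%, 25.6% and 18.8% of tested genes. Cybb was higher by 4.82, 4.58, 2.62 and 2.70 and Nox4 by 2.08, 2.57, 2.25 and 1.65 on the log2 scale. Ncf1 again missed the fold limit at 14 DPI (0.71, adjusted p = 0.0174) and 28 DPI (0.75, adjusted p = 0.0141, limma).

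Running was compared with no running within each repair arm in injured muscle. None of the 6 genes was called in any of the 8 comparisons. Without repair 0.0441%, 0%, 0.0177% and 0.0177% of tested genes were called at 3, 7, 14 and 28 DPI, and with graft 0%, 0%, 0% and 0%. The 48 differences, running minus no running, lay between -0.32 and 1.02, with 95% intervals from -0.90 to 1.82. Of them 7 had an unadjusted p under 0.05 and 0 an adjusted p under 0.05 in limma, and the lowest adjusted p was 0.160, for Ncf4 without repair at 7 DPI (0.54). The largest difference, Cybb with graft at 28 DPI (1.02, 95% interval 0.22 to 1.82, adjusted p = 0.422, limma), came from 2 running muscles at 10.82 and 89.20 TPM, against 9.26, 10.36, 21.64 and 24.51 TPM in the 4 others. Without the lower of these 2 muscles the difference was 2.49 (adjusted p = 0.00150, limma), and without the higher it turned to -0.45 (adjusted p = 0.910, limma). Each value rests on a single running muscle whose spread is assumed to be that of the other groups. The muscle with more Cybb also had more of the pan-leukocyte (233 against 61.5 TPM) and macrophage markers (1530 against 541 TPM), whose part was not tested. The interaction of graft and running was called for none of the 24 differences, which lay between -0.54 and 1.11, with a lowest adjusted p of 0.851 (limma) and 0 at an unadjusted p under 0.05. Of all tested genes 0.00883%, 0%, 0% and 0.00883% were called for it at 3, 7, 14 and 28 DPI.

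In running rats the injured muscles had 6 of 6 genes called higher than contralateral muscle at 3, 7 and 14 DPI, beside 33.7%, 39.9% and 25.7% of tested genes. Cybb was higher by 4.89, 4.30 and 2.94, Ncf1 by 3.50, 2.26 and 1.06, and Nox4 by 2.09, 2.53 and 1.77 on the log2 scale.

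**Figure D4:**
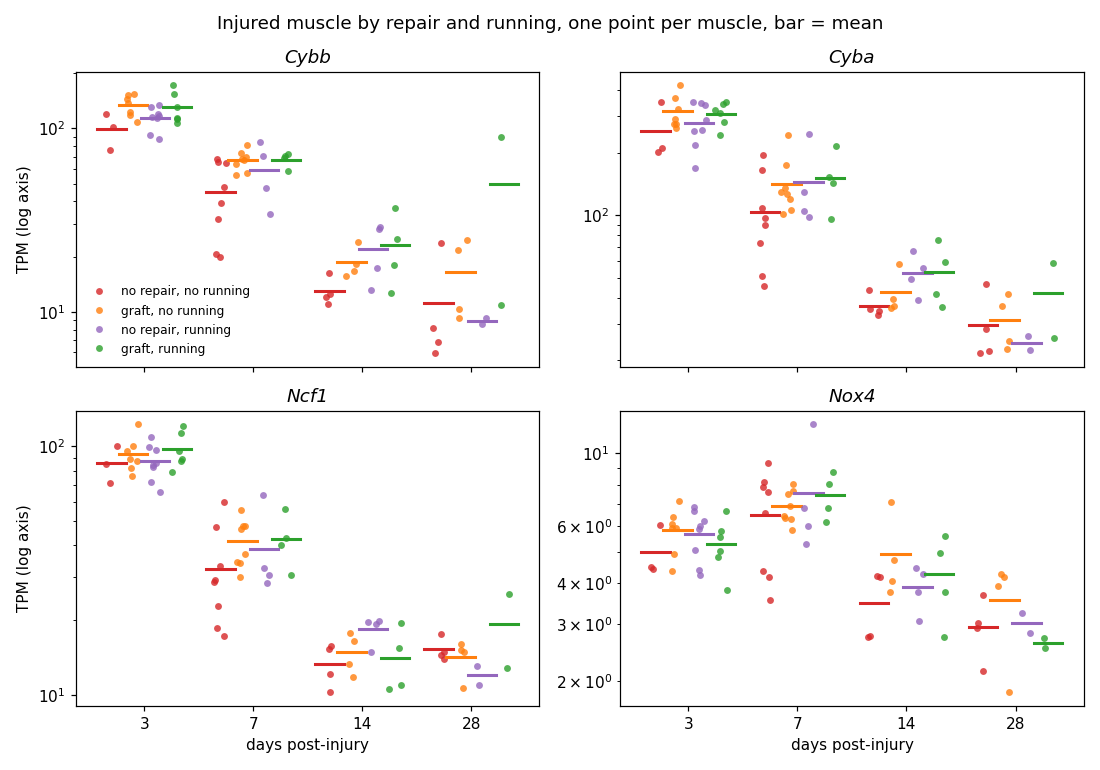
TPM (log axis) of Cybb, Cyba, Ncf1 and Nox4 in injured muscles of the 4 arms, with or without minced graft and running, by days post-injury, where points are muscles. The arms overlap at most days, and 1 grafted running muscle at 28 DPI stands at 89.20 TPM of Cybb.

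Of 30 other genes of the oxidase family and its regulators, 24 were in the table and 19 were tested. Of these, 16, 16, 12 and 7 were called higher in injured than control muscle at 3, 7, 14 and 28 DPI, beside 48.3%, 45.6%, 25% and 21.1% of all tested genes. With size factors 13, 11, 8 and 5 of the 19 were called higher. Over all genes size factors gave 4623, 4038, 2426 and 1638 calls in either direction, against 5954, 5445, 2889 and 2410 without them. Without size factors the median log2 fold changes of the 19 were 2.28, 1.68, 1.12 and 0.98, against 0.96, 0.91, 0.53 and 0.52 over all tested genes. The kinase genes Syk (4.0 at 3 DPI, 1.20 at 28 DPI) and Prkcd (3.79 and 1.60), which signal to the oxidase in phagocytes, and Arhgdib (3.97 and 1.66), a GDP-dissociation inhibitor of small GTPases in blood cells, were called higher at both days. Pak1, a kinase downstream of Rac, was called at both days (2.91 and 2.56) and did not pass between them (-0.36, adjusted p = 0.0993, limma). So was Sh3pxd2a, the scaffold Tks5 related to p47phox (1.29 and 1.33, and 0.04 between the days, adjusted p = 0.897, limma). Rac1, the widely expressed relative of Rac2, was at 176 ± 13.1 TPM (n = 4) in control muscle and 359 ± 42.9 TPM (n = 3) at 3 DPI, a log2 fold change of 1.02 there and 0.27 at 28 DPI. Duox1 and its maturation factor Duoxa1 were called at 3 DPI (1.65 and 2.29) and not at 28 DPI (0.44 and 0.99). Between 3 and 28 DPI 13 of the 19 were called lower, beside 24.3% of all tested genes. None was called for graft or running.

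Of 29 antioxidant genes, all tested, 19, 15, 5 and 7 were called higher than control at 3, 7, 14 and 28 DPI and none lower. Beside the 48.3%, 45.6%, 25% and 21.1% of all tested genes called higher, the share of the list was near the background at 7 and 28 DPI and below it at 14 DPI. With size factors the split was 8, 6, 5 and 5 higher and 4, 5, 3 and 1 lower, so the direction of the smaller differences depended on the scaling. The shares above are not those with size factors. Over all genes size factors gave 4623, 4038, 2426 and 1638 calls in either direction, against 5954, 5445, 2889 and 2410 without them. Hmox1, the heme oxygenase that breaks down heme, stood at 2.70 ± 0.97 TPM (n = 4) in control muscle, 925 ± 111 TPM (n = 3) at 3 DPI, 210 ± 265 TPM (n = 8) at 7 DPI and 23.2 ± 15 TPM (n = 4) at 28 DPI. Its log2 fold change was 8.0 at 3 DPI and 2.56 at 28 DPI. The extracellular glutathione peroxidase Gpx3 differed little between those days (2.79 at 3 DPI, 2.58 at 28 DPI, and -0.21 between them, adjusted p = 0.417, limma), whereas the cytosolic Gpx1 was called at 3 DPI (2.88) and not at 28 DPI (0.54). The endoplasmic reticulum peroxidase Gpx8 was called at 3 DPI (4.40) and 28 DPI (2.76), as was the membrane-bound glutathione transferase Mgst1 (4.13 and 1.22). Mitochondrial Sod2 had -0.20 and Prdx3 -0.78 at 3 DPI, neither called.

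Across all 114 muscles, the Pearson r of log2(TPM + 1) between members other than Nox4 lay between 0.94 and 0.99, and that of Nox4 with the others between 0.80 and 0.92. Within the 76 injured muscles the first range was again 0.94 to 0.99 and that of Nox4 0.57 to 0.67. These are descriptions over muscles that share days, arms and library scaling. The genes with the highest r to Cybb were Lyz2 (0.992), Lyc2 (0.991), Laptm5 (0.990), Cd68 and Cd53. Lyz2 and Lyc2 are lysozyme genes of similar sequence, whose reads may have been split between them. Cyba was closest to Grn (0.996), followed by Lgals3, Irf5, Laptm5 and Cd68, and Ncf1 to Aldh3b1 (0.986), followed by Arhgap25, Stxbp2, Tbc1d9 and Dnase2. Ncf4 was closest to Ptpn6 (0.994), Arhgap9, Spi1 (0.993), which encodes PU.1, C5ar1 and Cyth4, and Rac2 to Coro1a (0.993), Laptm5, Fcer1g, Bcl2a1 and Arhgap9. Nox4 had other neighbours, RGD1559896 (0.983), the peroxidasin gene Pxdn (0.982), Cd276, Fam198b and Olfml2b, and within injured muscle Mrc2 (0.918), the collagen-binding receptor of fibroblasts, Mxra8 (0.916), Glb1l, Timp2 and Aebp1.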

How the data were processed

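RNA from whole TA muscle was sequenced by the authors as 76 base paired-end reads and quantified with Kallisto on the rat genome, build 6.0, without a version given in the sources used here, and the deposited values are TPM per gene symbol. Each library is scaled to a common total, so TPM keeps no read depth and no counting error could be computed. The last symbol of the table was incomplete and left out. The table was used as deposited, without reads or counts.

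Of 138 libraries, 9 could not be given a group and 13 had fewer than 7000 symbols above 1 TPM (901 to 5712, against 7866 to 10948 in those kept), with ribosomal RNA up to 84.0% of TPM in those left out and up to 16.7% in those kept. Libraries of a muscle were averaged. Genes whose mean was above 1 TPM in any of the 31 groups were tested. All 114 muscles entered a single limma 3.58.1 model (R 4.3.3, trend) of log2(TPM + 1), which left 83 residual degrees of freedom, with Benjamini-Hochberg adjustment over 11328 genes. The study's own test of counts with DESeq2 could not be applied to TPM. The code was tested on simulated data. Ratios were tested by exact permutation with scipy 1.17.1, in Python 3.11.15 with pandas 2.3.3, numpy 2.4.6 and matplotlib 3.10.9.

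Replicates were muscles of different rats, except that the 4 controls were both muscles of 2 rats. Both muscles were kept for 36 rats. Residuals of muscles of the same rat had a mean correlation of 0.0722 (36 pairs), against -0.0087 for other pairs, and the pairing comes from the rat number in the titles. No 2 of 116 libraries held identical values.

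Alternatives were all libraries kept, no filter on low values, a pseudocount of 0.1 TPM, size factors from medians of ratios, a model of the compared groups alone, the rat as a block (statmod 1.5.0), control muscles averaged per rat, a covariate for the range of rat numbers, days compared within a shared range (added after the data were seen), each limit alone, and muscles left out in turn. Named genes are the 6 members, genes of the lists, and the 5 genes with the highest correlation to each member. The members and lists were chosen with earlier results of these data known. Values of some listed genes are not reported here.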

Additional observations from a re-analysis of the deposited data

Results flagged for a closer look

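A muscle was looked at again where its gap to the nearest other muscle of its group was large against the group's range (Dixon's 95% limit, groups of 4 to 10). Of 96 group and gene combinations 8 met this, where chance gives about 1 in 20. Among injured muscles without repair or running at 28 DPI, 1 muscle held Cybb at 23.78 TPM (others 5.93 to 8.14) and Rac2 at 12.03 TPM (others 6.09 to 6.96), and its pan-leukocyte marker sum, 113 TPM, was the highest of the 4. With each muscle left out in turn, Cybb at 28 DPI was higher than control by 2.33 to 2.94 and than contralateral by 1.62 to 2.23 on the log2 scale, called each time. Cyba stood at 9.69 TPM in a contralateral muscle at 7 DPI (others 7.54 to 7.60) and at 57.87 TPM in a grafted muscle at 14 DPI (others 35.85 to 39.42). Among running rats without repair, Ncf1 was high in 1 muscle at 7 DPI (63.49 TPM, others 28.29 to 32.46) and low in 1 at 14 DPI (14.97 TPM, others 19.41 to 19.92), and Ncf4 was high in 1 at 14 DPI (11.77 TPM, others 7.92 to 8.16). Nox4 was low in a grafted muscle at 28 DPI (1.85 TPM, others 3.92 to 4.28), which also had the lowest fibroblast (1923 TPM) and endothelial (106 TPM) marker sums of its group. The macrophage marker sum was the highest of its group in both muscles flagged for Cyba (126 and 1157 TPM) and in the running muscle at 7 DPI (5138 TPM). It was not at an end of the group range (864.5 to 1503 TPM) in the running muscles at 14 DPI (1085 and 1462 TPM). The part of these markers was not tested.

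The 9 libraries without a group were compared with the highest control muscle. Cybb, Cyba, Ncf4 and Rac2 exceeded it in 9 of 9, Nox4 in 8 and Ncf1 in 4. In 8 of them, from running rats at 28 DPI, the title and the label name opposite muscles. Cybb was at 1.13, 1.41, 1.41 and 1.73 TPM in those titled as injured and labelled as uninjured, and at 7.09, 8.37, 10.49 and 20.48 TPM in those titled as uninjured and labelled as injured. Nox4 was at 0.28 to 0.48 TPM in the former and 1.66 to 3.27 TPM in the latter. The ninth, labelled day 3 in a rat otherwise labelled day 7, held 4.35 TPM of Cybb and 0.67 TPM of Nox4. Which label holds was not tested.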

How the results depend on the processing

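Over 39 comparisons of the 6 genes, 3672 values under alternatives gave 3605 with the same call, 34 that lost a call, 32 that gained one and 1 that reversed. The reversal was Ncf1 in contralateral muscle at 7 DPI, at -1.01 (adjusted p = 0.00968, limma) with all libraries kept against 0.03. The 3605 values with the same call include 71 uncalled values that changed sign. Keeping all libraries gave 0 genes called in contralateral against control muscle at 3 DPI (3 otherwise), 1 at 7 DPI (0), 1 from 7 to 14 DPI (5) and 1 for graft at 7 DPI (0). Over all genes it gave 4155 calls in contralateral muscle at 7 DPI, against 91 otherwise. A pseudocount of 0.1 gave 5, 1 and 2 genes in contralateral muscle at 3, 7 and 14 DPI, and an Ncf4 to pan-leukocyte ratio difference of 0.20. Over all genes that pseudocount gave 484 calls in contralateral muscle at 14 DPI, against 81 otherwise. Size factors gave 1 at 3 DPI in contralateral muscle and 1 from 7 to 14 DPI. The compared groups alone gave 0 in contralateral muscle at 3 DPI. Comparing days within a shared range of rat numbers, chosen after seeing the data, gave 1 from 3 to 7 DPI (4 otherwise) and 0 from 7 to 14 DPI (5). The fold change alone gave 1 for running with graft and 1 for the interaction at 28 DPI, and the adjusted p alone 1 for graft at 7 DPI. Grafted muscles alone gave ratio differences of 0.42 (Ncf1 to Cybb), 0.36 (Rac2 to Cybb), 0.38 (Cybb to pan-leukocyte, which then passed) and 0.12 (Cyba to pan-leukocyte), where all but the third lost their call. Leaving out single muscles gave 0 to 4 genes in contralateral muscle at 3 DPI, 0 to 1 for running with graft and 0 to 1 for the interaction at 28 DPI, and ratio differences of 0.57 to 0.81 (Ncf1 to Cybb) and 0.17 to 0.31 (Cybb to pan-leukocyte). Except where the alternative holds fewer samples or another limit, the cause was not tested. The rat as a block changed no call of the 6 genes, with 6, 6, 5 and 5 called against control. Groups of 6 or more muscles were not left out in turn. TPM keeps no counts, so the counting error of levels below 1 TPM, as those of Cybb, Ncf4 and Nox4 in control muscle, could not be computed. Over all genes the count called against control was 5954, 5445, 2889 and 2410 in day order, and 9656, 9990, 8185 and 8132 by adjusted p alone. In contralateral muscle it was 728 at 3 DPI (22 in the compared groups alone, 6125 by adjusted p alone), 91 at 7 DPI (28 to 4155), 81 at 14 DPI (2 to 484) and 21 at 28 DPI (0 to 249). It was 773 from 7 to 14 DPI (213 to 8047), 52 from 14 to 28 DPI (14 to 145) and 10 for graft at 7 DPI (1 to 928).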

Other observations

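At 7 DPI a ratio within injured muscle without running did not overlap between repair arms, a pattern seen on looking through the values and given with no test. The log2 ratio of Rac2 to the pan-leukocyte marker sum lay between -3.31 and -2.92 (mean -3.11) in 8 muscles without repair and between -3.64 and -3.37 (mean -3.47) in 8 grafted muscles, with no overlap. In running rats the arms overlapped, at -3.19 to -2.99 without repair and -3.61 to -2.92 with graft (4 muscles each). The log2 ratio of Nox4 to Cybb lay between -2.96 and -2.06 (mean -2.54) without repair and between -3.27 and -2.91 (mean -3.10) with graft, with overlap.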
